A study of Mus musculus with 18 samples.

Results

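The transcripts Csf1r, Mrc1, Cd163, Mgl2, Cd209e, F13a1, Lyve1, Cx3cr1 and Maf, which mark the resident macrophages of skeletal muscle, were followed in FACS-isolated syndecan-3+ cells across muscle injury. They are 9 of the 18194 genes that the array measures under a symbol of their own, and their 18 probe sets (3 for Csf1r, 2 each for Lyve1 and Cx3cr1, 6 for Maf and 1 for each of the others) stand among 45101 on the array. The members were taken by symbol alone. The cells came from tibialis anterior muscle of female mice, aged 3 to 6 months by the labels and 3 months by the study's description of the sort, either uninjured (0 h) or 12 h or 48 h after injection of barium chloride, and each of 6 groups has 3 arrays. Wild type (WT) mice were B6D2F1/J, a C57Bl/6 by DBA2 cross, and Sdc4-/- mice were C57Bl/6 animals with both copies of syndecan-4 deleted, so genotype and strain cannot be told apart in any comparison between them. All groups were sorted by syndecan-3 antibody alone, with no stated exclusion of blood cells. Values are log2 GCRMA values, a background-corrected intensity scale on which a difference of 1 is a doubling and the background of these arrays lies between about 2 and 4. Groups were compared with limma, and a difference is called where its p, adjusted by Benjamini-Hochberg across the whole array, is under 0.05. Where a gene has several probe sets it is represented by the brightest, and whether each sample came from separate animals is not stated, so p-values may measure technical spread only.

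Resident macrophages settle in muscle between the fibres and around vessels, where they clear debris and take up proteins from the blood. Csf1r, the receptor for CSF-1 and IL-34, keeps them alive, and Maf is a transcription factor of their differentiation. The other members are receptors and secreted proteins that they carry in resting tissue. Injured muscle draws in neutrophils and blood monocytes, of which the monocytes later become macrophages.

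The labelled cell type was checked first. Pax7, the defining transcription factor of satellite cells, had a mean log2 value of 4.87 in WT uninjured cells and means between 2.40 and 2.60 in the other 5 groups, near background. Myf5 stood at 4.71 in WT uninjured cells and between 2.74 and 3.61 elsewhere, and Calcr, a further satellite cell marker, between 2.68 and 3.39 in all groups. Sdc3, the transcript of the sort marker, had group means between 4.78 and 6.79, and 22 satellite cell markers averaged between 3.38 and 4.41 over the 17 arrays. Csf1r in the same arrays reached 14.24. The defining macrophage marker Adgre1 (F4/80) had means between 2.84 (WT, 12 h) and 9.40 (Sdc4-/-, 48 h). The labels call all of these cells satellite cells, and the brightest Csf1r probe set was above 10 in every array of 5 of the 6 groups. In these bulk samples fewer macrophages and less of a transcript per macrophage cannot be told apart. Sdc4, the deleted gene, was low in both genotypes at 0 h and 12 h (means between 4.03 and 4.71) and was lower in Sdc4-/- cells at 48 h, 4.92 against 7.66 (log2 difference -2.74, standard error 0.68, adjusted p = 0.04).

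The arrays differ in ways that touch the comparisons. The WT 12 h arrays had the fewest probe sets brighter than 5, between 2832 and 3982, against 5076 to 7864 in the other groups, and the highest hybridization controls, with means between 13.5 and 14.3 against 7.86 to 12.5. The part of these differences in the values of the WT 12 h cells was not tested apart from the alternative with the controls as a covariate. The WT uninjured group holds 2 arrays after the study removed another, taken here to be replicate 3, and they are far apart. The 9 members averaged 5.30 in replicate 1 and 8.72 in replicate 2, and 9.78 in the removed array. Counts of members in comparisons with WT uninjured cells are therefore also given without each array and with all 18. For the other gene lists such alternatives are given only in part, and for the Csf1r and Cd163 lists not at all. By their headers, uninjured arrays of the genotypes were scanned on different days, so scan day and genotype cannot be told apart at 0 h.

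**Figure D1:**
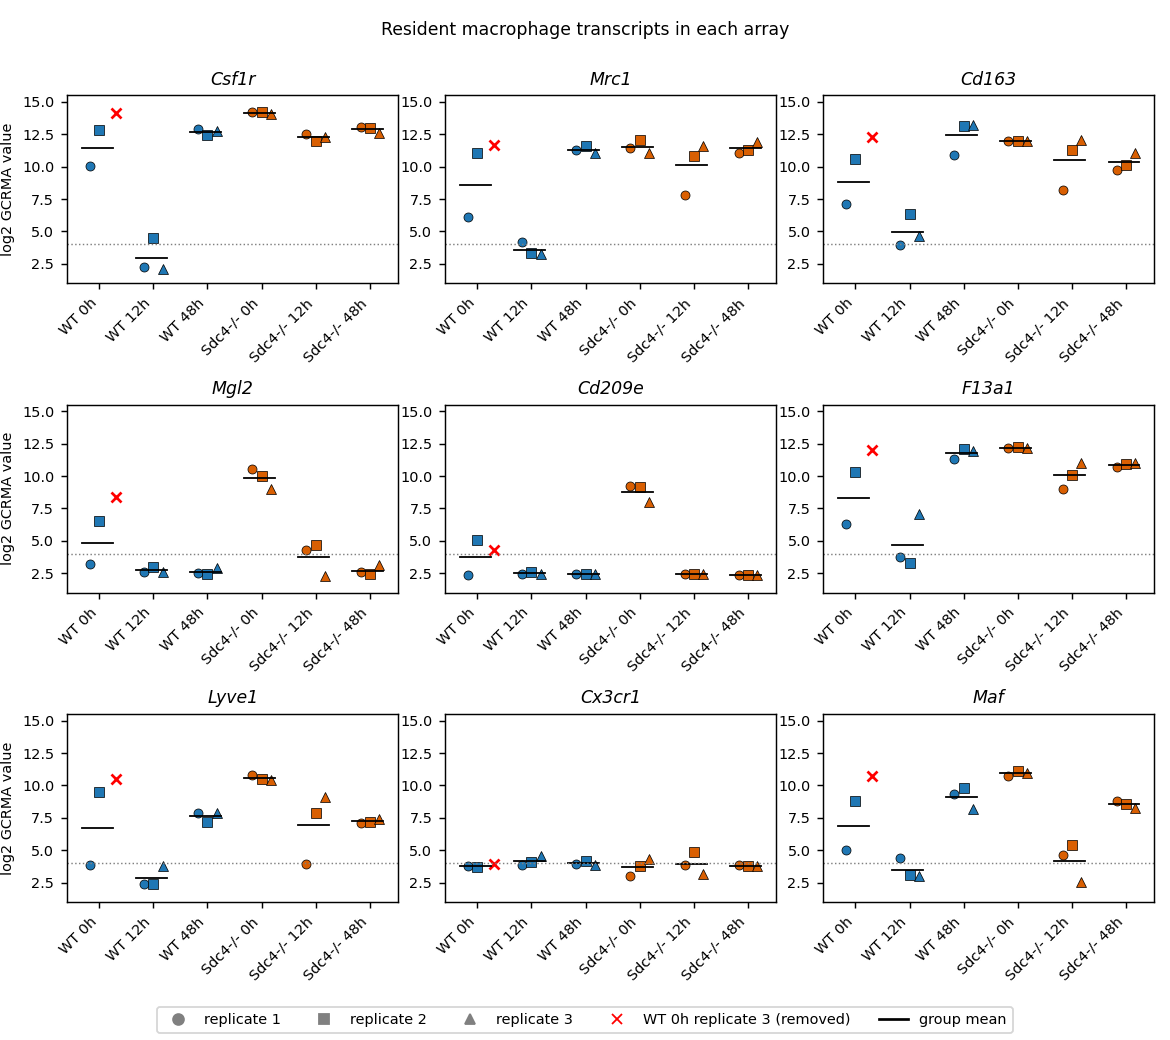
Each panel plots the log2 GCRMA value of 1 gene (brightest probe set) in each array, by genotype and time, with the replicate as the symbol, the group mean as a line and the removed WT 0h replicate 3 as a red cross; the dotted line is at a log2 value of 4. Csf1r, Mrc1, Cd163, F13a1, Lyve1 and Maf have their lowest mean in the WT 12h group. Mgl2 and Cd209e pass 5 only at 0 h, and Cx3cr1 stays between 3.04 and 4.88.

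Csf1r, the growth factor receptor of the lineage, was near background at 12 h in WT cells and, on its brightest probe set, bright in every other group. The WT uninjured arrays read 10.02 and 12.86, the WT 12 h arrays 2.23, 4.50 and 2.12, and the WT 48 h arrays 12.91, 12.43 and 12.74. The Sdc4-/- arrays read 14.18, 14.24 and 14.03 uninjured, 12.49, 12.01 and 12.26 at 12 h, and 13.09, 12.95 and 12.58 at 48 h. The 3 WT 12 h arrays thus lay below all 14 others, with no overlap. The log2 change of WT cells at 12 h was -8.49 (standard error 0.74, adjusted p = 1.24e-05). Since the WT 12 h mean of 2.95 lies at background, the size of this and of every other Csf1r difference from these arrays rests on where GCRMA sets the floor. For Sdc4-/- cells it was -1.90 (95% interval -3.35 to -0.46, adjusted p = 0.125). The genotype difference in this change, 6.59 (standard error 1.00, adjusted p = 0.00207), passed the test of the difference itself. In the order of the 6 group means (Sdc4-/- 0 h, Sdc4-/- 48 h, WT 48 h, Sdc4-/- 12 h, WT 0 h, WT 12 h) that step from WT 0 h to WT 12 h was the only neighbouring pair to pass the test. The other 2 Csf1r probe sets were dimmer and gave another picture. They fell in Sdc4-/- cells at 12 h too, by 3.29 (adjusted p = 0.0175) and by 3.76 (adjusted p = 0.0041) on the log2 scale, where the brightest probe set was not called, and their genotype differences of 1.43 (adjusted p = 0.414) and -1.76 (adjusted p = 0.266) were not called.

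Mrc1, the mannose receptor CD206, followed the same order of groups. WT uninjured arrays read 6.09 and 11.01, WT 12 h arrays 4.22, 3.32 and 3.28, and WT 48 h arrays 11.29, 11.60 and 11.06. Sdc4-/- arrays read 11.45, 12.07 and 11.04 uninjured, 7.83, 10.83 and 11.61 at 12 h, and 11.07, 11.28 and 11.94 at 48 h. Only the WT 12 h arrays and WT uninjured replicate 1 were below 7. Mrc1 fell by 4.95 on the log2 scale at 12 h in WT cells (standard error 1.22, adjusted p = 0.00793), and in Sdc4-/- cells its change of -1.43 (95% interval -3.80 to 0.95) was not called.

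Cd163, the scavenger receptor for haptoglobin-haemoglobin complexes, read 7.10 and 10.60 in WT uninjured arrays, 3.94, 6.32 and 4.65 at 12 h, and 10.93, 13.14 and 13.19 at 48 h. Sdc4-/- arrays read 12.01, 11.99 and 11.95 uninjured, 8.19, 11.28 and 12.03 at 12 h, and 9.76, 10.15 and 11.07 at 48 h. Cd163 is the member for which the WT 48 h group had the highest mean (12.42), although its nearest neighbour, the Sdc4-/- uninjured group at 11.98, did not differ beyond the spread (adjusted p = 0.827). Cd163 fell by 3.88 at 12 h in WT cells (standard error 1.22, adjusted p = 0.0255).

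F13a1, the catalytic A subunit of coagulation factor XIII that cross-links fibrin, read 6.27 and 10.31 in WT uninjured arrays, 3.76, 3.28 and 7.06 at 12 h, and 11.33, 12.07 and 11.97 at 48 h. It lay in Sdc4-/- cells between 12.13 and 12.27 uninjured, between 9.03 and 11.04 at 12 h and between 10.68 and 11.02 at 48 h. Its fall at 12 h in WT cells was 3.59 on the log2 scale (standard error 1.14, adjusted p = 0.0272), but WT 12 h replicate 3 lay above WT uninjured replicate 1, so the groups overlap. Replicate 1 of the Sdc4-/- 12 h group was the lowest of its group for F13a1 (9.03), as for Mrc1, Cd163 and Lyve1.

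Lyve1, a hyaluronan receptor of lymphatic endothelium and of perivascular macrophages, read 3.86 and 9.53 in WT uninjured arrays, 2.37, 2.40 and 3.75 at 12 h, and 7.84, 7.21 and 7.84 at 48 h. Sdc4-/- arrays read 10.77, 10.53 and 10.40 uninjured, 3.92, 7.89 and 9.09 at 12 h, and 7.12, 7.21 and 7.43 at 48 h. No change of this probe set against uninjured cells was called in either genotype (at 12 h -3.86, adjusted p = 0.0588, in WT and -3.60, adjusted p = 0.149, in Sdc4-/- cells). The dimmer Lyve1 probe set, at 6.51 in Sdc4-/- uninjured cells and between 2.99 and 3.62 in all other groups, fell in Sdc4-/- cells by 3.44 at 12 h (adjusted p = 0.000358) and by 3.52 at 48 h (adjusted p = 0.000335). Of the lymphatic markers, Prox1 had group means between 3.47 and 4.24, and Flt4 was highest in WT uninjured cells (6.46) where Lyve1 was not. The mean of 8 lymphatic markers lay between 3.68 and 4.65 in all 17 arrays.

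Maf was the member whose 12 h fall was called in both genotypes. WT arrays read 4.99 and 8.83 uninjured, 4.38, 3.06 and 3.03 at 12 h, and 9.32, 9.80 and 8.16 at 48 h. Sdc4-/- arrays read 10.76, 11.13 and 10.97 uninjured, 4.62, 5.40 and 2.56 at 12 h, and 8.81, 8.57 and 8.27 at 48 h. The log2 change at 12 h was -3.42 in WT cells (standard error 1.00, adjusted p = 0.0184) and -6.76 in Sdc4-/- cells (standard error 0.89, adjusted p = 0.000785), and their difference of -3.35 was not called (adjusted p = 0.133). With the hybridization controls as a covariate the WT value turned to 1.65 (adjusted p = 0.824) and the Sdc4-/- change was -6.01, still called. Of the 6 Maf probe sets, 2 stayed under a mean of 4 in all groups. Of the dimmer ones, 2 fell with it in Sdc4-/- cells at 12 h, by 4.48 (adjusted p = 0.000163) and 2.66 (adjusted p = 5.08e-05). The latter had Sdc4-/- means of 5.21 uninjured, 2.55 at 12 h and 2.58 at 48 h, so it had not returned at 48 h.

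Mgl2 and Cd209e are a pair of C-type lectins (Mgl2 is the galactose-binding CD301b, Cd209e a mouse relative of DC-SIGN). They were set apart by time from the brightest probe sets of the other members. Mgl2 read 3.18 and 6.55 in WT uninjured arrays and 10.51, 9.97 and 9.04 in Sdc4-/- uninjured arrays. At 12 h it read 2.57, 3.00 and 2.61 in WT and 4.33, 4.72 and 2.30 in Sdc4-/- cells, and at 48 h 2.53, 2.45 and 2.88 in WT and 2.58, 2.41 and 3.14 in Sdc4-/- cells. All 3 Sdc4-/- uninjured arrays stood above every other array of the 17, and at 48 h no array of either genotype was above 3.14.

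Cd209e was sharper still. It read 9.24, 9.18 and 7.98 in Sdc4-/- uninjured arrays, 2.38 and 5.09 in WT uninjured arrays, and between 2.34 and 2.59 in all 12 arrays after injury. Against uninjured Sdc4-/- cells, Mgl2 fell by 6.06 at 12 h (standard error 0.77, adjusted p = 0.000595) and by 7.13 at 48 h (adjusted p = 0.000213). Cd209e fell by 6.37 at 12 h (standard error 0.51, adjusted p = 2.76e-05) and by 6.43 at 48 h (adjusted p = 2.38e-05). Since both genes end near background, the sizes of these falls rest on the same floor. In WT cells neither fall was called (Mgl2 -2.14 at 12 h, adjusted p = 0.0669, and -2.25 at 48 h, adjusted p = 0.111).

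Cx3cr1, the fractalkine receptor of monocytes and many tissue macrophages, was near background throughout. Its brighter probe set lay between 3.04 and 4.88 in the 17 arrays, with group means between 3.73 and 4.17, and was called in no comparison. The other probe set had group means between 2.37 and 2.76 and a called rise of 0.39 at 12 h in WT cells (adjusted p = 0.0434), within the range where values have no reliable order. Its ligand Cx3cl1 had means between 3.20 and 3.96.

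Against uninjured cells of the same genotype, 5 of the 9 members were called lower and 0 higher at 12 h in WT cells. Over all genes 20.8% were called lower in this comparison and 19.6% higher, and 44.6% of the 6279 genes whose mean reached 4 were lower. Of the 9 members 7 had such a mean, the exceptions being Cd209e and Cx3cr1. The median log2 change was -3.59 over the members, 0.09 over all genes and -1.56 over those 6279 genes. In WT cells at 48 h limma called 0 members lower (9.39% of all genes) and 0 higher (5.47%), with 2 lower and 4 higher at an unadjusted p under 0.05, and Cd163 and F13a1 stood 3.57 (adjusted p = 0.0766) and 3.50 (adjusted p = 0.0661) above uninjured cells.

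These WT counts rest on single uninjured arrays. No share of all genes called is set beside the counts of this and later alternatives. They show only how far the calls depend on the arrays and settings, not what is particular to the members. Without WT uninjured replicate 1 the count at 12 h was 8, all lower, and without replicate 2 it was 1, Csf1r at -7.07 (adjusted p = 6.06e-05). Without WT 12 h replicate 1 it was 3. At 48 h the count became 2 without uninjured replicate 1 (Mgl2 -3.93, adjusted p = 0.0128, and Cd209e -2.64, adjusted p = 0.00124) and 5, all higher, without replicate 2. With all 18 arrays 7 members were lower at 12 h and 0 were called at 48 h. With the hybridization controls as a covariate no member was called at 12 h in WT cells, with Csf1r at -8.24 (adjusted p = 0.101). The controls are highest in the WT 12 h group, so covariate and group overlap.

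Among Sdc4-/- cells 3 members were called lower and 0 higher at 12 h (7.23% of all genes were lower and 1.48% higher, and 14.8% of the 6279 brighter genes were lower): Cd209e, Mgl2 and Maf. At 48 h 2 were called lower, Mgl2 and Cd209e (2.59% of all genes), and 0 higher (2.65%). The median over the members was -2.14 at 12 h and -1.65 at 48 h, against 0.04 and 0.02 over all genes. At 48 h the 95% intervals were -8.79 to -5.46 for Mgl2 and -7.54 to -5.33 for Cd209e. They were -2.72 to 0.17 for Csf1r on its brightest probe set, -2.46 to 2.28 for Mrc1 and -4.02 to 0.71 for Cd163. On the other Csf1r probe sets the means went from 12.09 uninjured to 9.96 at 48 h and from 8.08 to 5.78. The Csf1r change at 48 h was called in 1 alternative and reached -1.90 at its lowest. The falls of Mgl2 and Cd209e were called in every alternative in which they were tested, also without any 1 array, and with the hybridization controls as a covariate (at 48 h -7.46 and -6.52). Both comparisons share the uninjured arrays.

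**Figure D2:**
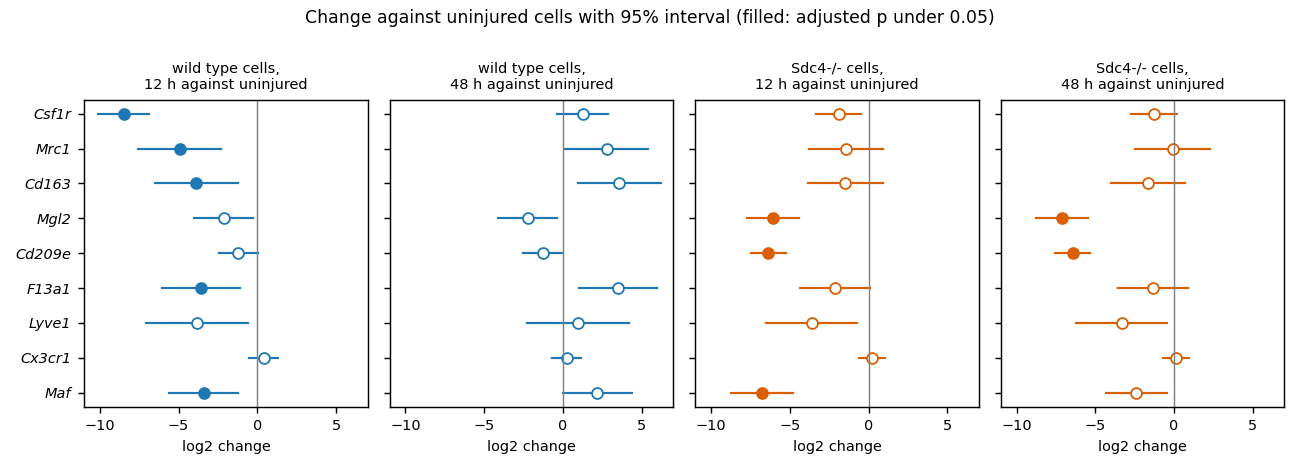
Log2 change of each member against uninjured cells of the same genotype, at 12 h and 48 h, with its 95% interval from limma; filled points have an adjusted p under 0.05. Csf1r is the largest change in WT cells at 12 h (-8.49), and Mgl2 and Cd209e are the filled points of Sdc4-/- cells at 48 h (-7.13 and -6.43).

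From 12 h to 48 h, a comparison added after the values had been seen and free of the WT uninjured arrays, 6 members were called higher in WT cells (9.27% of all genes and 26.3% of the 6279 brighter genes were) and 0 lower (5.9%). They were Csf1r (9.74, standard error 0.66, adjusted p = 1.85e-06), Mrc1 (7.71, adjusted p = 0.000602), Cd163 (7.45, adjusted p = 0.000762), F13a1 (7.09, adjusted p = 0.000692), Maf (5.60, adjusted p = 0.00142) and Lyve1 (4.79, adjusted p = 0.0342). Every 48 h array stood above every 12 h array for these 6 genes, each by its brightest probe set (11.8% of all genes did so). The means of the other Csf1r probe sets rose from 3.21 to 9.34 and from 2.75 to 4.41. For the dimmest the arrays overlapped, reaching 3.72 at 12 h and starting at 3.65 at 48 h. Mgl2 changed by -0.11 (95% interval -1.77 to 1.56) and Cd209e by -0.07 (-1.17 to 1.04) over the same interval. With the hybridization controls as a covariate 4 of the rises stayed below an adjusted p of 0.05, Csf1r with 9.66 (adjusted p = 0.000142) among them, while Maf (3.90, adjusted p = 0.06) and Lyve1 (4.56, adjusted p = 0.273) did not. The rise of Lyve1 was called in 7 alternatives and not in 9, among them all 18 arrays (adjusted p = 0.0634) and leaving out any WT 12 h or WT 48 h array other than WT 12 h replicate 3 (adjusted p up to 0.0994). A single member of Sdc4-/- cells, Maf, rose from 12 h to 48 h, by 4.36 (standard error 0.89, adjusted p = 0.0122, with 7.61% of all genes called higher), and 0 fell (0.819%).

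Between genotypes, uninjured Sdc4-/- cells had 3 members called higher than WT cells (1.32% of all genes) and 0 lower (2.96%): Cd209e by 5.07 (standard error 0.57, adjusted p = 0.000262), Mgl2 by 4.97 (standard error 0.86, adjusted p = 0.00581) and Maf by 4.05 (standard error 1.00, adjusted p = 0.0438). Csf1r was higher by 2.71 on its brightest probe set (adjusted p = 0.0725) and by 4.16 and 3.33 on the other 2 (adjusted p = 0.0126 and 0.0227). Every Sdc4-/- uninjured array exceeded both WT arrays for 8 members, all but Cx3cr1 (24.3% of all genes did so). Without WT uninjured replicate 1, and with all 18 arrays, Cd209e alone was called (3.71, adjusted p = 0.000128, and 4.87, adjusted p = 0.000342). In the removed array Csf1r (14.14) and Mrc1 (11.63) were within the range of the Sdc4-/- uninjured arrays and Cd163 (12.29) was above it, whereas Cd209e (4.33) and Mgl2 (8.36) were below all 3. Without replicate 2 the count was 7.

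At 12 h 4 members were higher in Sdc4-/- than in WT cells (8.68% of all genes and 24.1% of the 6279 brighter genes) and 0 lower (10.4%). These were Csf1r by 9.30 (standard error 0.66, adjusted p = 5.63e-06), Mrc1 by 6.49 (adjusted p = 0.00159), Cd163 by 5.53 (adjusted p = 0.00406) and F13a1 by 5.36 (adjusted p = 0.00336). On the other Csf1r probe sets the Sdc4-/- and WT means at 12 h were 8.80 and 3.21, and 4.32 and 2.75. The arrays of the genotypes did not overlap for these 4 genes (every Sdc4-/- array was higher for 11.8% of all genes). With the hybridization controls as a covariate only the difference of Csf1r was called (9.16, adjusted p = 0.00473), while Mrc1 differed by 5.48 (adjusted p = 0.25), Cd163 by 5.79 (adjusted p = 0.224) and F13a1 by 5.08 (adjusted p = 0.264). At 48 h 0 members differed in either direction in limma (1.43% of all genes were lower and 4.7% higher), 0 at an unadjusted p under 0.05 and 0 without moderation of the variances. The intervals at 48 h were -1.26 to 1.63 for Csf1r, -2.26 to 2.48 for Mrc1 and -4.46 to 0.27 for Cd163.

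The genotype difference in the change, Sdc4-/- minus WT, was called for 3 members at 12 h, 1 higher (6.32% of all genes) and 2 lower (5.7%). Beside Csf1r these were Cd209e (-5.15, standard error 0.76, adjusted p = 0.00186) and Mgl2 (-3.92, standard error 1.15, adjusted p = 0.0471). At 48 h it was called lower for 2 members (1.03% of all genes) and higher for 0 (3.64%), Cd209e (-5.14, adjusted p = 0.00299) and Mgl2 (-4.88, adjusted p = 0.0347). In WT uninjured cells the mean was 3.74 for Cd209e (arrays at 2.38 and 5.09) and 4.87 for Mgl2 (arrays at 3.18 and 6.55), so replicate 1 was at background for both and replicate 2 above it. The part of this floor in the difference was not tested. With all 18 arrays the difference of Mgl2 was -2.75 at 12 h (adjusted p = 0.345) and -3.72 at 48 h (adjusted p = 0.436) and not called, and that of Cd209e was -4.95 (adjusted p = 0.00336) and -4.94 (adjusted p = 0.00773). The 12 h difference of Csf1r was 7.49 with all 18 arrays (adjusted p = 0.00517) and 8.01 or 5.17 when uninjured replicate 1 or 2 of the WT cells was left out (adjusted p = 0.000385 and 0.00424). It was 6.38 with the hybridization-control covariate, where it was not called (adjusted p = 0.207). The 48 h count was 8 without WT uninjured replicate 2, and it was 1 without WT uninjured replicate 1, without any WT 48 h or Sdc4-/- 48 h array and without Sdc4-/- uninjured replicate 1 or 2.

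The split between Mgl2 with Cd209e and the other members, read on brightest probe sets, was set beside 28 other resident macrophage genes. A dimmer probe set each of Lyve1 and Maf also had a group mean above 4 only in Sdc4-/- uninjured cells (6.51 and 5.21). In Sdc4-/- cells 19 of the 28 fell and 0 rose at 12 h, with a median of -3.64. Of all genes 7.23% fell and 1.48% rose, and 14.8% of the 6279 brighter genes fell. At 48 h 13 of the 28 fell and 0 rose, with a median of -2.02 (2.59% and 2.65% of all genes). The relatives of Cd209e on this list were Cd209b, Cd209d, Cd209f and Cd209g, which fell by 3.57, 4.05, 3.42 and 5.02 at 12 h and by 3.75, 4.19, 3.85 and 5.47 at 48 h (adjusted p between 0.000691 and 0.018), and Cd209a, which lay between 2.32 and 2.83 in all group means. Cross-hybridization between these near relatives was not tested. Clec10a (MGL1), the closest relative of Mgl2, had means of 10.79, 7.41 and 6.71 at 0 h, 12 h and 48 h in Sdc4-/- cells, and its changes of -3.38 and -4.08 were not called. Retnla, a secreted protein of alternatively activated macrophages, fell by 6.72 at 48 h (adjusted p = 7.4e-05), and the lectin Fcna by 6.57 (adjusted p = 0.00114). The phosphatidylserine receptor Timd4 fell by 4.76 (adjusted p = 0.00247), the complement receptor Vsig4 by 4.30 (adjusted p = 0.00506) and the chemokine Ccl24 by 4.57 (adjusted p = 0.00577).

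Not every gene of this list stayed low. Stab1, a scavenger receptor, fell by 2.96 at 12 h in Sdc4-/- cells (adjusted p = 0.000814) and stood 0.07 from the uninjured mean at 48 h. Selenop, the selenium carrier, had the highest mean of the list and was called in no comparison (-3.58 at 12 h and -1.79 at 48 h). The list's counts in Sdc4-/- cells ranged from 15 to 23 at 12 h and from 10 to 17 at 48 h over 16 alternatives each. In WT cells 11 of the 28 fell at 12 h and 0 rose (21 without uninjured replicate 1, 5 without replicate 2, 11 with all 18 arrays and 0 with the hybridization-control covariate). Of all genes 20.8% fell in WT cells at 12 h and 19.6% rose, and 44.6% of the 6279 brighter genes fell. At 48 h 4 of the 28 fell (9.39% of all genes), Retnla (-4.76, adjusted p = 0.00105) and Cd209f (-2.85, adjusted p = 0.0415) among them. Pf4, Stab1 and Ms4a7, 3 genes in all, rose (5.47% of all genes). With all 18 arrays 2 of the list were called in all at 48 h.

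**Figure D3:**
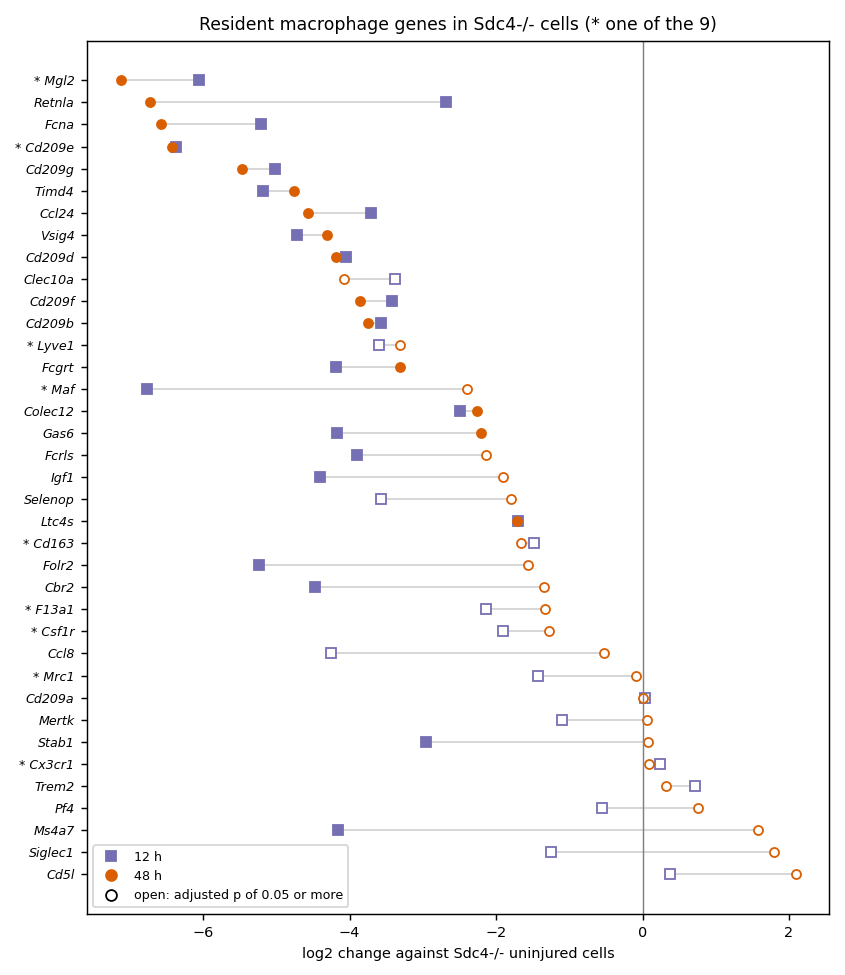
Log2 change of the 9 members (marked *) and 28 other resident macrophage genes in Sdc4-/- cells against the uninjured mean, at 12 h (squares) and 48 h (circles), ordered by the 48 h change; filled symbols have an adjusted p under 0.05. Each gene is shown by its brightest probe set. Mgl2 (-7.13), Retnla (-6.72), Fcna (-6.57) and Cd209e (-6.43) lie lowest at 48 h, and Csf1r, F13a1 and Mrc1 lie between -1.33 and -0.09.

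Pan-macrophage genes were counted in the same way. From 12 h to 48 h in WT cells 9.27% of all genes rose, 26.3% of the 6279 brighter genes did, and 5.9% of all genes fell. At 48 h 5.47% of all genes were above and 9.39% below uninjured cells in WT cells. In Sdc4-/- cells these shares were 2.65% and 2.59%. Of 22 pan-macrophage genes, 18 rose and 0 fell from 12 h to 48 h in WT cells (median 4.68), and 9 stood above uninjured cells at 48 h with 0 below (4 with all 18 arrays, 4 without uninjured replicate 1 and 14 without replicate 2). Cd68, a lysosomal glycoprotein, was 4.79 above uninjured WT cells (adjusted p = 0.00183), and Fcgr1, a high-affinity IgG receptor, 4.79 above (adjusted p = 0.000712). For Sdc4-/- cells 2 of the 22 were above and 0 below at 48 h, with Fcgr1 higher by 3.72 (adjusted p = 0.00324), while Mgl2 and Cd209e were at background in the same arrays. Ctss and Lyz1 had means of 13.93 and 14.57 there. Of 16 recruited monocyte genes, 8 were above uninjured cells at 48 h in WT cells and 0 below (3 without uninjured replicate 1, 8 without replicate 2, 5 with all 18 arrays and 4 with the hybridization-control covariate), and 6 in Sdc4-/- cells (0 below), with Chil3 6.51 above in WT cells (adjusted p = 0.00384). The mean level of these 16 genes ranged from 4.34 to 5.54 in WT and 6.47 to 6.94 in Sdc4-/- uninjured arrays and from 7.46 to 7.81 and 8.61 to 9.04 at 48 h. In Sdc4-/- cells the neutrophil markers S100a8 and S100a9 had means of 11.91 and 9.87 uninjured and of 12.87 and 11.90 at 12 h. These changes at 12 h were not called (0.95, adjusted p = 0.771, and 2.03, adjusted p = 0.408). At 48 h the means were 7.23 and 5.86. Csf3r, a further neutrophil marker, had group means between 3.24 and 4.85. The mean of 16 neutrophil genes ranged from 5.41 to 6.84 in Sdc4-/- uninjured arrays. It ranged from 5.29 to 7.22 in Sdc4-/- arrays at 12 h and from 3.76 to 3.95 at 48 h. The part of these other cell types in the members' values was not tested.

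**Figure D4:**
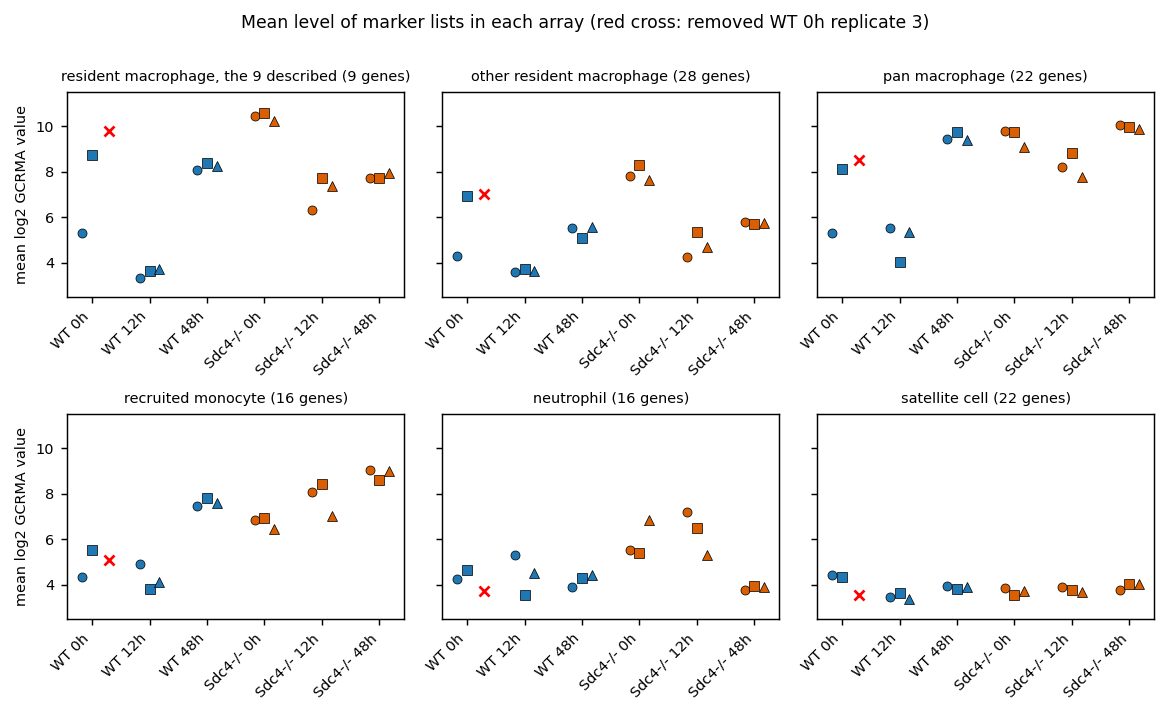
Mean log2 GCRMA value of 6 marker lists in each array, by genotype and time, with the replicate as the symbol and the removed WT 0h replicate 3 as a red cross. At 48 h pan-macrophage genes average at least 9.38 and recruited monocyte genes between 7.46 and 9.04, while the 28 other resident genes average between 5.09 and 5.78, below the 7.62 to 8.28 of the Sdc4-/- uninjured arrays.

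Genes around 2 of the receptors were followed by fixed lists. The Csf1r list held ligands, lineage transcription factors and signalling partners. Csf1, its main ligand, rose by 4.26 at 12 h in Sdc4-/- cells (standard error 0.51, adjusted p = 0.000401), to a mean of 7.75, and fell by 1.88 in WT cells (adjusted p = 0.0218), to 2.91. The genotype difference in this change was 6.14 (standard error 0.76, adjusted p = 0.000686). Il34, the other ligand, stayed between 2.26 and 2.56. Of the 25 genes, 6 were lower and 2 higher at 12 h in WT cells (20.8% and 19.6% of all genes), and 2 lower and 2 higher in Sdc4-/- cells (7.23% and 1.48%). Between genotypes at 12 h, 11 were higher and 1 lower in Sdc4-/- cells (8.68% and 10.4% of all genes). The median log2 differences of the list were -0.51, -0.07 and 0.75. The adaptor Tyrobp stood at 11.51 in WT and 11.01 in Sdc4-/- cells at 48 h, and the transcription factor Klf4 fell by 3.25 at 12 h in WT cells (adjusted p = 0.0421) and changed by -0.07 in Sdc4-/- cells.

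The Cd163 list held genes of haem and iron handling. Hmox1, haem oxygenase, was above uninjured cells at 48 h in both genotypes, by 2.66 in WT (adjusted p = 0.0273) and by 2.69 in Sdc4-/- cells (adjusted p = 0.0283), and fell by 2.25 at 12 h in WT cells (adjusted p = 0.0244). Of the 15 genes, 5 were lower and 1 higher at 12 h in WT cells (20.8% and 19.6% of all genes, list median -1.42). In Sdc4-/- cells 3 were lower and 0 higher at 12 h (7.23% and 1.48%, list median 0.07). At 48 h 1 was lower and 3 higher in WT cells (9.39% and 5.47%). In Sdc4-/- cells 0 were lower and 1 higher at 48 h (2.59% and 2.65%). The iron transporter Slc11a1 was 2.84 above uninjured WT cells at 48 h (adjusted p = 0.000702). It read 5.82 and 7.02 in the fitted WT uninjured arrays. In the removed WT uninjured array it read 9.25, near the WT 48 h mean of 9.26. Bach1, a haem-sensitive repressor, fell by 4.63 at 12 h in WT cells (adjusted p = 0.000399). The removed array read 10.05 for Bach1 and 5.88 for Hmox1, against fitted WT uninjured means of 8.93 and 6.07.

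Among themselves the members fell in part into these same groups over the 17 arrays. Pearson's r, given as a description over arrays that share groups and normalization, was 0.97 between Mgl2 and Cd209e and between 0.88 and 0.94 for the 6 pairs of Csf1r, Mrc1, Cd163 and F13a1. Between Mgl2 or Cd209e and these 4 it was between 0.33 and 0.42. Lyve1 lay between the groups, with r between 0.81 and 0.89 with these 4, 0.64 with Mgl2 and 0.66 with Cd209e. Maf had r between 0.58 and 0.74 with all members except Cx3cr1. The genes most like the mean member profile, of 6272 candidates, were Ctsh (r = 0.97), C1qb, Timp2, Fcgr2b, Pde3b, Adcy7, Ly86, C1qa, Cbr2 and Rab31 (r = 0.93). Most like Csf1r were Lamtor1 (r = 0.96), Rab31, S100a6, Ndufb7 and Capza2. Most like the mean of Mgl2 and Cd209e, a target chosen after the values were seen, were Cd209g, Selenbp1, Fcna, Kbtbd11 and Alox5 (r between 0.95 and 0.96).

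The promoters of the members were read for the core letters of PU.1 (Spi1), the myeloid transcription factor, and of MAF. RefSeq promoter windows of GRCm38.p6, which run from 250 bases before to 50 after a start, were at hand for 6 members (Mrc1, Cd163, Mgl2, Cd209e, F13a1 and Cx3cr1). These members have 7 windows, F13a1 having 2. GAGGAA on either strand was present in 4 of the 7 windows, those of 3 genes, against 28.3% of 32851 windows, and the MAF half-site TGCTGA in 0, against 19.5%. The match nearest upstream of a start is shown for each of the 3 genes, with the motif in capitals and on the strand that reads GAGGAA. A match is a run of letters, not a bound site.
Mrc1, chr2:14229367-14229396, minus strand: aaaaggaggacaGAGGAAgctgtccctttt
F13a1, chr13:37050293-37050322, minus strand: ttgaagctacagGAGGAAgagaggataaga
Mgl2, chr11:70130120-70130149, plus strand: agggtctagaaaGAGGAAtatgggacggca
Spi1 itself had group means between 3.13 and 4.03.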

How the data were processed

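RNA of sorted cells was amplified in 2 rounds by T7 and hybridized to Affymetrix MOE430v2 arrays, 18 in all. The authors read intensities in GCOS and normalized them by GCRMA in Spotfire DecisionSite 2 (other versions not given in the sources used here). The deposited values are log2 GCRMA values of 45101 probe sets and carry no detection calls, so arrays, not depth, limit precision. They were used as deposited. WT 0h replicate 3 was left out, since the study removed 1 unnumbered WT uninjured array.

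The other 17 arrays were fitted in 6 groups with limma 3.58.1 in R 4.3.3 (lmFit, eBayes, 11 residual and 1.2 prior degrees of freedom), adjusted by Benjamini-Hochberg over all probe sets. Symbols come from the platform annotation: 34958 probe sets have 1 symbol, 932 several and 9211 none. A gene is its probe set with the highest mean. Of 275 genes in 17 lists 257 were matched. The genes set to be named were all members, the 4 genes with the highest mean of each list, ligands, lectin relatives and check genes. Not all of them are named here. No gene of the blood endothelium, fibroblast, smooth muscle and pericyte, mast cell, T, B and NK cell or myofibre lists is. Of the satellite cell list only Pax7, Myf5, Calcr, Sdc3 and Sdc4 are. Further genes of the resident, pan-macrophage, Csf1r, Cd163 and dendritic cell lists were named after their values were seen. The members and lists were chosen with earlier results of these data known. The fit was tested on simulated data. Alternatives were all 18 arrays, compared groups only, trend and robust eBayes, quantile normalization, a 75th percentile shift, a mean of at least 4, a replicate block, a study-like threshold (2-fold, p of 0.01), the mean of probe sets, hybridization controls as a covariate and each array left out.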

Additional observations from a re-analysis of the deposited data

Results flagged for a closer look

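The change after injury differed between genotypes, Sdc4-/- minus WT, by the test of the difference itself for 3 members. Csf1r differed by 6.59 at 12 h (adjusted p = 0.00207). Mgl2 differed by -3.92 at 12 h (adjusted p = 0.0471) and by -4.88 at 48 h (adjusted p = 0.0347), and Cd209e by -5.15 at 12 h (adjusted p = 0.00186) and by -5.14 at 48 h (adjusted p = 0.00299). On the other 2 Csf1r probe sets the 12 h difference was 1.43 (adjusted p = 0.414) and -1.76 (adjusted p = 0.266). The Csf1r difference lost its call in 2 alternatives and was 2.09 at its lowest over the settings. Under the alternatives, the difference of Mgl2 was called in 8 and not in 13 at 12 h and in 9 and not in 12 at 48 h, and with all 18 arrays it was not called at either time (adjusted p = 0.345 and 0.436). That of Cd209e was called in 19 and not in 1 at each time. Each of these contrasts uses the WT uninjured group of 2 arrays.

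The removed WT uninjured array, which enters no fit, held 8 of the 9 members above both WT uninjured arrays that were fitted. The share of all genes for which it did so was not counted, so this is not read as particular to the members. It read 14.14 for Csf1r, 11.63 for Mrc1, 12.29 for Cd163, 8.36 for Mgl2, 12.04 for F13a1, 10.50 for Lyve1, 10.71 for Maf and 3.97 for Cx3cr1, which is near background. For Cd209e it read 4.33, between the fitted arrays. The same array had 4512 probe sets brighter than 5 (log2) and a hybridization-control mean of 12.8, against 7213 and 7620 and 7.86 and 8.94 in the 2 fitted WT uninjured arrays.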

How the results depend on the processing

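Counts of members called, given without the share of all genes called in the same alternative, moved by over 1.5 times as follows. All 18 arrays gave 1 for uninjured Sdc4-/- against WT cells and 1 for the genotype difference at 48 h. Fitting only the groups compared gave 1 for WT cells at 12 h, 6 for Sdc4-/- cells at 48 h, 0 for uninjured cells, 2 for the genotypes at 12 h, 1 for the genotype difference at 48 h and 0 for Sdc4-/- cells from 12 h to 48 h. Quantile normalization gave 2 for WT cells at 12 h, 1 for the 48 h difference and 0 for Sdc4-/- cells from 12 h to 48 h. The 75th percentile shift gave 2 for WT cells at 48 h, and a mean of at least 4 gave 2 there and 1 for Sdc4-/- cells at 48 h, where Cd209e is no longer tested. The study-like threshold gave 3 for WT cells at 12 h and 5 for uninjured cells, and the mean of probe sets 5 for Sdc4-/- cells at 12 h. The hybridization-control covariate gave 0 for WT cells at 12 h, 1 for the genotypes at 12 h, 1 for each genotype difference and 0 for Sdc4-/- cells from 12 h to 48 h; Maf at 12 h in WT cells turned from -3.42 to 1.65 (adjusted p = 0.824). The cause of these moves was not tested.

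With each array left out, counts ranged from 1 to 8 for WT cells at 12 h, 0 to 5 for WT cells at 48 h, 1 to 7 for uninjured cells, 4 to 5 for the genotypes at 12 h, 2 to 4 and 1 to 8 for the genotype differences at 12 h and 48 h and 5 to 6 for WT cells from 12 h to 48 h. They stayed at 3 and 2 for Sdc4-/- cells at 12 h and 48 h, 0 for the genotypes at 48 h and 1 for Sdc4-/- cells from 12 h to 48 h. Where 1 uninjured WT array is left, its spread is taken from the other groups.

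Replicate numbers shared by groups do not pair the samples (median r of deviations -0.0042 over 40 pairs with the same number). With the replicate number as a block the count for WT cells at 48 h was 1, and no other count of members moved by over 1.5 times (WT cells at 12 h, 6 for 5). Of 968 changes of single members under the other settings, 869 kept their direction and side of the threshold, 29 became called, 47 were no longer called and 23 turned in sign, of which 22 were called in neither fit and 1 was that of Maf. Of those 22, Mgl2 turned with the hybridization-control covariate in WT cells at 12 h (from -2.14 to 2.84) and 48 h (from -2.25 to 1.06) and between genotypes at 12 h (from 1.05 to -1.68), and Maf between genotypes at 12 h (from 0.70 to -2.09). With 1 array left out, 30 of 657 turned, all uncalled in both fits. Values under about 4 have no reliable order, so falls of Mgl2 and Cd209e end at the floor of the scale.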

Other observations

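Of the 14 measured dendritic cell genes, 7 were lower and 0 higher at 48 h than in uninjured cells in Sdc4-/- cells, and 3 lower and 0 higher in WT cells (5 without WT uninjured replicate 1, 1 without replicate 2). Of all genes 2.59% were lower and 2.65% higher in Sdc4-/- cells, and 9.39% and 5.47% in WT cells. Batf3 (-2.53), Irf4 (-2.08) and Dpp4 (-0.89) were among the called genes in Sdc4-/- cells. Flt3 (-0.05), Xcr1 (-0.02), Ccr7 (-0.09), Zbtb46 (-0.59), Itgax (0.30) and Cd24a (1.59) were not called there. Flt3, Xcr1, Ccr7 and Dpp4 had every group mean under 4. The 5 genes of MHC class II presentation on this list were singled out after their values were seen. H2-Eb1 changed by -4.98 on the log2 scale in Sdc4-/- cells (adjusted p = 0.000213) and by -4.14 in WT cells (adjusted p = 0.000955). In the same order H2-Aa changed by -4.40 (adjusted p = 0.0137) and by -5.04 (adjusted p = 0.00649), and Cd74, the invariant chain, by -4.78 (adjusted p = 0.000562) and by -2.46 (adjusted p = 0.0303). H2-Ab1 changed by -4.83 in Sdc4-/- cells (adjusted p = 0.00412) and by -2.84 in WT cells, where it was not called (adjusted p = 0.0569). Ciita, the class II transactivator, was near background in all groups (means between 2.43 and 3.23) and was called in neither. In the removed WT uninjured array H2-Aa read 13.90 and Cd74 9.86, near the Sdc4-/- uninjured means of 13.89 and 9.95.

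Neutrophil genes were lower at 48 h than at 12 h in Sdc4-/- cells, a comparison added after the values were seen, with 6 of 16 called lower and 0 higher. Of all genes 0.819% were lower and 7.61% higher there. Lcn2 fell by 5.79 (adjusted p = 0.00463) and S100a9 by 6.04 (adjusted p = 0.0152). In WT cells 0 of the 16 were called in either direction over the same interval (5.9% of all genes were lower and 9.27% higher).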
